A study of Mus musculus with 2 samples.

Results

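A set of 10 genes of heart, pituitary and brain that are known to respond to thyroid hormone (T3) were examined for chromatin occupancy in brown adipocytes by TRα1, a receptor of this hormone. They were Myh6, Myh7, Atp2a2, Hcn2 and Hcn4 for the heart, Gh, Tshb and Cga for the pituitary, and Mbp and Nrgn for the brain. These are 10 of the 21938 protein-coding genes of the annotation used and were given as a list of names. A TR binding site (TRBS), which is a peak of the deposited list, was assigned to a gene when its summit lay within 100 kb of the annotated transcription start site (TSS), and sites within 30 kb are given first. Of the 5107 TRBS in the list, 8 lay within 100 kb of a member and 7 lay within 30 kb.

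The data came from adult male C57BL/6J mice, aged 8 to 12 weeks, in which TRα1 carrying a GS tag was expressed in brown adipocytes and in no other cell type. All animals were hypothyroid after 2 weeks of propylthiouracil food, and all were then given thyroid hormones over 24 h. One library was made after chromatin immunoprecipitation (ChIP) of brown adipose tissue, and 1 library was made from the input chromatin as control. The promoter that restricts the tagged receptor to brown adipocytes and the number of animals behind each library were not given in the labels. There was no replicate and no hormone-free library in the files used, so the values below describe 1 peak list, and no effect of T3 on occupancy can be read from them. The share of cells with an occupied site and the occupancy in each cell cannot be told apart. As a check of the tissue, 8 of 10 brown adipocyte genes (all but Prdm16 and Dio2) had a TRBS inside the 30 kb window, and 10 of 10 had one within 100 kb, while the shares of all protein-coding genes were 16.7% and 38.3%. This list was chosen with earlier results of these data known.

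TRα1 is a nuclear receptor that sits on DNA with or without hormone, usually as a heterodimer with RXR. The pair recognizes a direct repeat of the half-site AGGTCA with a spacer of 4 bases, called a DR4. In the heart, T3 raises Myh6, which encodes the fast α-myosin heavy chain, and lowers Myh7, which encodes the slow β chain. It also raises Atp2a2, which encodes the SERCA2 calcium pump of the sarcoplasmic reticulum, and the pacemaker channels encoded by Hcn2 and Hcn4. In the pituitary, T3 represses Tshb and Cga, the subunits of thyrotropin, and it acts on Gh, which encodes growth hormone. In the brain, Mbp encodes a protein of the myelin sheath and Nrgn encodes neurogranin, a calmodulin-binding protein of neurons.

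The 30 kb window held a TRBS for 3 of the 10 members, Atp2a2, Hcn2 and Mbp. Among all protein-coding genes, 16.7% (3659 genes) had one. Atp2a2 had 3 sites, Hcn2 had 2 and Mbp had 2. No site was found within this distance of Myh6, Myh7, Hcn4, Gh, Tshb, Cga or Nrgn. With a set of 10 genes the share changes much with each gene, so the count describes these genes and says little about response genes in general.

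The sequences under the summits at Atp2a2 and Hcn2 are shown because only 1 of these 5 sites holds a DR4. Each is the forward strand of GRCm38 over 50 bases on either side of the summit, extended at the first Hcn2 site to take in its DR4. Capitals mark a half-site AGGTCA or GGGTCA, or its reverse complement, and the half-sites of the DR4.
Atp2a2, chr5:122519063-122519163: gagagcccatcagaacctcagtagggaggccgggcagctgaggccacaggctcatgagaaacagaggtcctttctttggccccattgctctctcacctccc
Atp2a2, chr5:122525851-122525951: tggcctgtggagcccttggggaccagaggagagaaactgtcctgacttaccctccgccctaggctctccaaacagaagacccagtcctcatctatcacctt
Atp2a2, chr5:122527053-122527153: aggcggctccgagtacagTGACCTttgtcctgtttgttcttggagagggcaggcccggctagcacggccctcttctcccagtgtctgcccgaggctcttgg
Hcn2, chr10:79701437-79701624: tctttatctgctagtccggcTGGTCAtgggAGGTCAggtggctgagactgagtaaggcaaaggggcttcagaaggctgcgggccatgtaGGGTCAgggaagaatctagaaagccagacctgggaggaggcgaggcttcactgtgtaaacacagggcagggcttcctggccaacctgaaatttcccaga
Hcn2, chr10:79706447-79706547: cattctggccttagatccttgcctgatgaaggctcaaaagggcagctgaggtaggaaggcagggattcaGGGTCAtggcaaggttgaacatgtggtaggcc
Near the first and second Atp2a2 summits no exact half-site was present. The other 3 windows each hold at least 1.

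Within 30 kb, Atp2a2 had the most sites of any member. The gene (chr5:122453513-122502225, reverse strand) had 3 TRBS, all upstream of its TSS and in intergenic DNA. The nearest to the TSS (chr5:122518716-122519327) had its summit 16888 bp upstream, with 29 ChIP fragments at the summit (95% exact Poisson interval 19.4 to 41.6). Its fold enrichment over input was 18.6 and its MACS score, 10 times the −log10 of the q-value, was 349. The second (chr5:122525727-122526218) lay 23676 bp upstream with 27 fragments (17.8 to 39.3), a fold of 19.3 and a score of 351. The 2 intervals overlap, so these sites cannot be ranked. The remaining site (chr5:122527023-122527463), 24878 bp upstream and 1202 bp beyond the second, had 9 fragments (4.12 to 17.1), a fold of 6.22 and a score of 56. Its interval lies below those of both neighbours, and its score is under the value of 60 that the study's methods required.

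For all 3 sites the nearest protein-coding TSS was that of Atp2a2. The next one, that of Ift81, was between 87415 and 95405 bp away, and no other protein-coding TSS lay within 30 kb of that of Atp2a2. Assignment by distance thus left 1 protein-coding candidate in this window, although a small noncoding gene, Gm22965, had its start nearer to all 3 sites (12324, 19112 and 20314 bp). Over their whole width the 3 sites held 2, 1 and 2 exact half-sites. None held a DR4 with up to 2 mismatches over the 12 half-site bases, a criterion met by 32.0% of all TRBS.

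Hcn2 had a strong and a weak site, both upstream and both nearer to another gene. The gene (chr10:79716634-79736108, forward strand) had 1 TRBS at chr10:79701201-79702028, with the summit 15060 bp upstream, 31 fragments (21.1 to 44.0), a fold of 14.4 and a score of 291. This site was intergenic, and its nearest protein-coding TSS was that of Bsg, 2917 bp away. Bsg encodes basigin, a membrane glycoprotein that accompanies monocarboxylate transporters. The other TRBS (chr10:79706017-79706751) lay in an intron of Bsg, 10137 bp upstream of Hcn2 and 2006 bp from the TSS of Bsg, with 9 fragments (4.12 to 17.1), a fold of 6.22 and a score of 56. Its interval lay below that of the first site. In total 3 other protein-coding TSS were found within 30 kb of that of Hcn2, so the distance rule does not single out Hcn2 here.

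The stronger Hcn2 site was the only one of the 7 with a DR4. The element, TGGTCAtgggAGGTCA (chr10:79701457-79701472, forward strand), differs from the consensus by A1T, with positions counted from 1 at the 5′ end of the 16-base element. Its centre was 109.5 bp from the summit, so it was not at the point of highest pileup. The site also held 6 exact half-sites, 1 AGGTCA and 5 GGGTCA, and 60 TRBS (1.17%) had as many or more. It was wider than 94.7% of TRBS (828 bp against a median of 424 bp), and a wide site has more room for short motifs. A pair of its GGGTCA half-sites formed a direct repeat with a spacer of 3 bases, GGGTCAccaGGGTCA (chr10:79701831-79701845), 264 bp from the summit. The weaker site held 3 half-sites, all GGGTCA, and no DR4.

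Mbp had the site with the most fragments among members. In this gene (chr18:82475146-82585637, forward strand) both TRBS within 30 kb lay in an intron, downstream of the most upstream TSS. The first (chr18:82494983-82495404) was 20043 bp downstream, with 45 fragments (32.8 to 60.2), a fold of 20.7 and a score of 499. It had more fragments than 90.2% of all TRBS. The second (chr18:82496129-82496805) was 21233 bp downstream and 1190 bp from the first, with 25 fragments (16.2 to 36.9), a fold of 13.6 and a score of 240. The intervals of both sites overlap. Repeats made up 33.2% of the second site, against a median of 7.01% over all TRBS. Neither site held an exact half-site AGGTCA or GGGTCA, or a DR4.

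Mbp was also the only member with a TRBS between 30 and 100 kb. This site (chr18:82377274-82377750) lay 97623 bp upstream, with 30 fragments (20.2 to 42.8), a fold of 21.7 and a score of 412. Its nearest protein-coding TSS was that of Galr1, a galanin receptor gene, 29254 bp away. It held a DR4 with 1 mismatch whose centre was 5.5 bp from the summit.

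The position of the Mbp sites depends on which TSS is used. The annotation gives 2 clusters of transcript starts for this gene. The upstream cluster, with 4 transcripts of which 3 are coding, starts the long transcripts that include the Golli region, and both sites lie within 30 kb of it. The downstream cluster holds 12 transcripts, 11 of them coding, with starts 79324 to 88116 bp further along the gene, and it includes the starts of the classic myelin transcripts. From these starts the nearest TRBS was 58091 to 66883 bp away, and none was within 30 kb. When the median start of the coding transcripts was taken as the TSS, a choice made after seeing the data, 2 members and 5 TRBS remained within 30 kb.

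**Figure D1:**
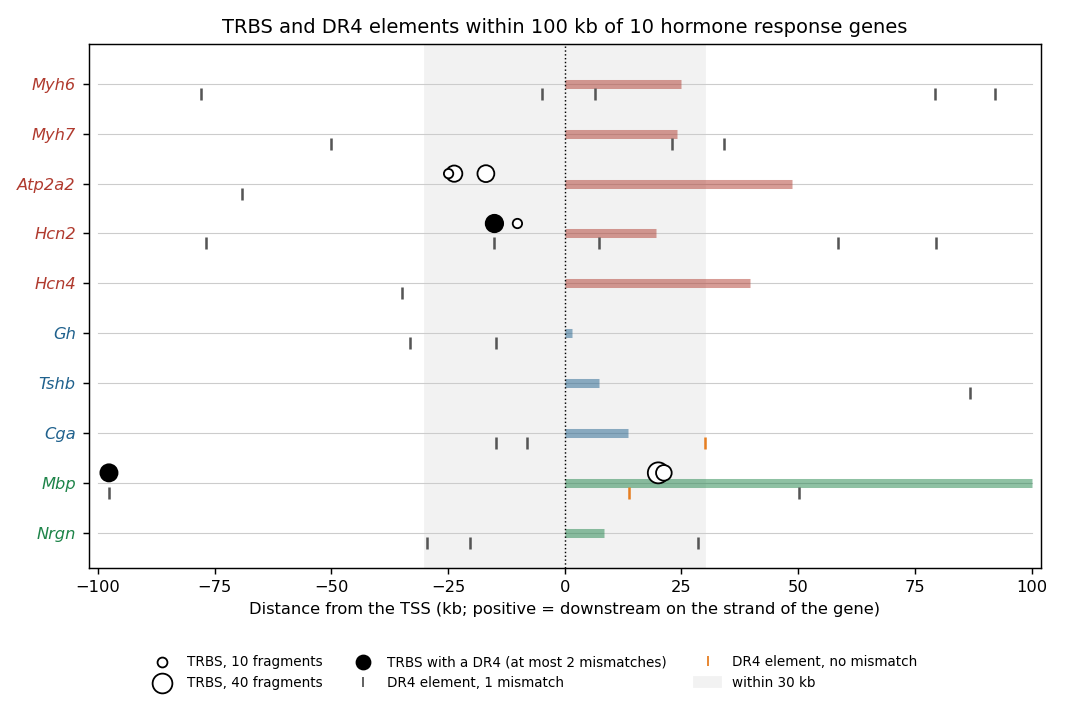
TRBS (circles, area proportional to ChIP fragments at the summit) and DR4 elements (ticks) around the TSS of each member, in kb, with the gene body as a coloured bar (cut at 100 kb for Mbp) and the 30 kb window shaded. Atp2a2, Hcn2 and Mbp have circles in the window, and 1 of the 7 circles there is filled, which marks a DR4 with at most 2 mismatches.

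Of the 10 members, 3 had at least 2 sites within 30 kb, as 4.55% of all protein-coding genes (998) did. Among genes with any site in this window, those with 2 or more were 3 of 3 members and 27.3% of all protein-coding genes. With a score of at least 60, Atp2a2 and Mbp each kept 2 sites and Hcn2 kept 1. Both Hcn2 sites are nearer to Bsg. The sites within each gene were 1190 to 6788 bp from the next one, so they are not independent draws from the list. The 7 sites lay 10137 to 24878 bp from the TSS. None was in a promoter (from 1000 bp before a TSS to 100 bp after it), a UTR or a coding exon. No member had a TRBS within 10 kb, where 8.09% of all protein-coding genes (1775) had one. With the score of at least 60 the same 3 genes kept a site, with 5 TRBS in all, against 14.1% of all protein-coding genes.

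Widening the window to 100 kb added no member. At this distance 3 of 10 members had a TRBS, against 38.3% of all protein-coding genes (8393). At 20 kb the counts were 2 members and 12.5% of genes, at 50 kb 3 members and 24.0%, and at 200 kb 7 members and 55.5%. The share of members was above that of all protein-coding genes at 30 kb and below it at 10 and 100 kb. With 10 genes each of these differences rests on few genes, and none was tested. The median distance to the nearest TRBS was 136 kb for the members and 162 kb for all protein-coding genes.

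**Figure D2:**
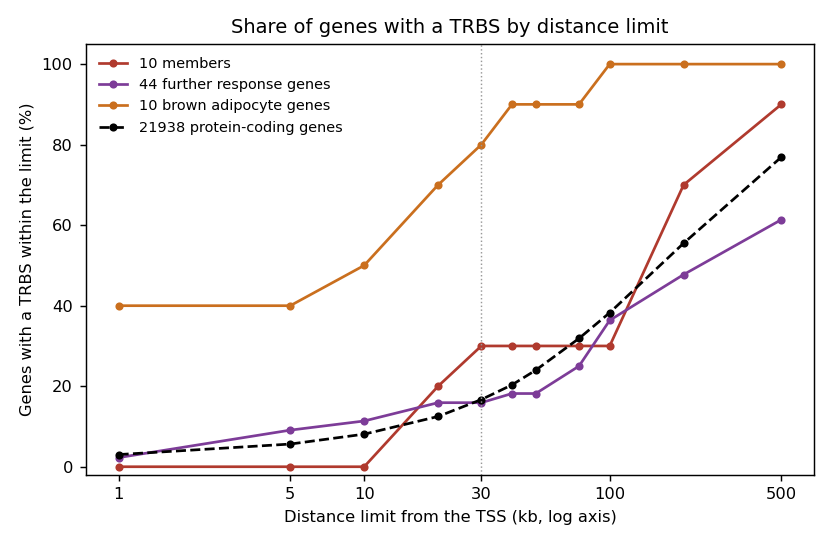
Share of genes with at least 1 TRBS within a distance limit of the TSS (horizontal log axis, in kb) for the 10 members, 44 further hormone response genes, 10 brown adipocyte genes and all protein-coding genes (dashed). The members are at 0% up to 10 kb, at 30% from 30 to 100 kb and cross the dashed line between 10 and 20 kb then again between 50 and 75 kb and between 100 and 200 kb, while the brown adipocyte genes start at 40% and reach 100% at 100 kb.

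The heart genes fell into both groups. Myh6 (chr14:54941921-54966927, reverse strand) had its nearest TRBS 397827 bp away, a site of 16 fragments whose nearest protein-coding gene was Ajuba. Of all protein-coding genes, 72.2% had a nearer one. Myh7 (chr14:54970684-54994626, reverse strand), which lies next to Myh6, had the same nearest site at 425526 bp, so these 2 myosin genes give 1 observation and not 2. For Hcn4 (chr9:58823412-58863175, forward strand), the main pacemaker channel gene of the sinus node, the nearest TRBS was 150699 bp upstream with 9 fragments, nearest to Rec114. The nearest TRBS lay 10137 bp from the TSS of Hcn2 and 150699 bp from that of Hcn4. For Hcn2 this was the weak site in an intron of Bsg, with a score of 56, and it is nearer to the TSS of Bsg.

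None of the pituitary genes had a TRBS within 100 kb. The nearest to Gh (chr11:106300271-106301865, reverse strand) lay 108013 bp away with 18 fragments, next to Strada. For Tshb (chr3:102775465-102782718, reverse strand) it lay 828892 bp away with 16 fragments, next to Slc22a15, and 85.5% of protein-coding genes had a nearer site. For Cga (chr4:34893779-34907370, forward strand) it lay 152353 bp away, next to Ifnk, with 5 fragments, the fewest of any TRBS for which fragments could be solved. Of the brain genes, Nrgn (chr9:37544492-37552904, reverse strand) had its nearest TRBS 122150 bp away with 25 fragments, next to Robo3. For these 7 members without a site, the share of protein-coding genes with a nearer TRBS ran from 40.1% (Gh) to 85.5% (Tshb).

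An empty window means that no peak was called at this depth. The lowest input background in the list was 0.430 fragments, and where it applied (1004 TRBS) the weakest called site had 5 fragments at its summit. Occupancy that gave fewer fragments than this was not detectable, and its absence is not shown.

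In strength, the sites near members ranged from 9 to 45 fragments. Their median was 27 fragments against 17 for all TRBS, with the middle 50% of all TRBS between 11 and 27. The median fold was 14.4 against 9.83. The sites of 9 fragments exceeded 10.5% of all TRBS, and the other 5 exceeded 70.5 to 90.2% of them. Another 4 genes served as references, each by its strongest TRBS within 30 kb. Klf9, a transcription factor gene induced by T3 in many tissues, had 91 fragments (73.3 to 112), and Thrsp, a lipogenic gene, had 88 (70.6 to 108). Hr, a corepressor gene, had 59 (44.9 to 76.1) at a site 24771 bp downstream that is nearest to Nudt18. Ucp1, the uncoupling protein of brown fat, had 362 (326 to 401). The intervals of all 7 sites lay below those of these strongest sites of Klf9, Thrsp and Ucp1, and 6 of the 7 lay below that of Hr, the exception being the stronger Mbp site. The other sites of the references reached down into the range of the members or below it, with the weakest at 8 fragments for Hr, 11 for Thrsp, 27 for Ucp1 and 31 for Klf9. Of the 8 brown adipocyte genes with a site within 30 kb, Ppargc1a had 65 fragments at its strongest site. Another 6 (Adipoq, Cidea, Ebf2, Fabp4, Plin1 and Pparg) had 10 to 21 at theirs, beside 29, 31 and 45 for Atp2a2, Hcn2 and Mbp. The intervals of all 6 lay below that of Mbp. Those of Cidea, Fabp4, Plin1 and Pparg overlapped those of Atp2a2 and Hcn2, so these sites cannot be ranked. The interval of Adipoq overlapped that of Atp2a2 only, and that of Ebf2 overlapped neither. These intervals cover counting error only, since 1 library of each kind gives no spread between libraries. Sequenced fragments can also be PCR copies of the same molecule, which the intervals do not take into account.

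**Figure D3:**
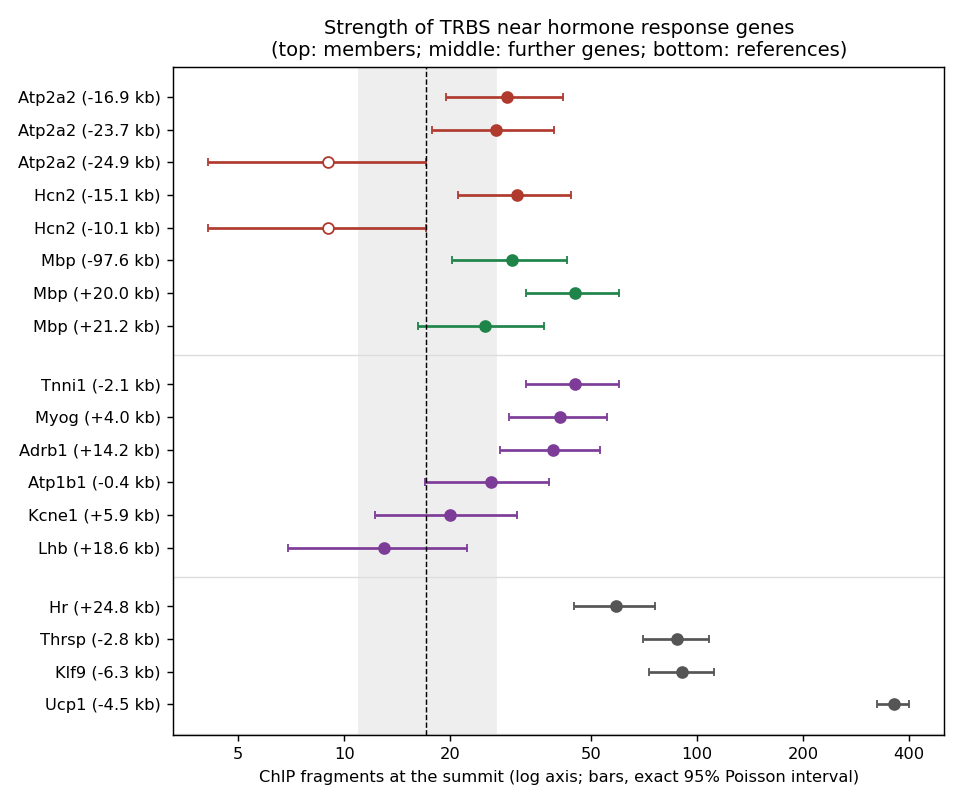
ChIP fragments at the summit (log axis) with the exact 95% Poisson interval for the 8 member sites (red heart, green brain), the strongest site of each of 6 further genes with a TRBS within 30 kb (purple) and of the 4 references (grey), labelled by distance from the TSS. Open circles have a score under 60, the dashed line is the median of all TRBS (17) and the band is the middle 50% (11 to 27), and the member sites range from 9 to 45 fragments against 59 to 362 for the strongest site of each reference.

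Of the 7 sites, 1 (14.3%, 95% Wilson interval 2.57 to 51.3%) held a DR4 with up to 2 mismatches, while the share over all TRBS was 32.0%, inside this interval. The interval takes the sites as independent, which neighbouring sites of the same gene are not, so it is a rough guide only. With at most 1 mismatch the shares were 14.3% and 7.23%, so the order of the sites and the list depends on the mismatches allowed. With 7 sites a difference from the list was not detectable. An exact AGGTCA was present in 3 of the 7 sites and in 56.0% of all TRBS. The letters TTGCNNAA of C/EBP, a factor of adipocyte differentiation, searched on both strands, were found in the stronger Hcn2 site (2 matches) and the second Mbp site (1 match), and in 25.3% of all TRBS. Median GC content was 53.9% in the 7 sites and 51.1% in the list.

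The DR4 elements around the members were then listed without regard to TRBS. Within 30 kb of the members there were 12 distinct elements with at most 1 mismatch, and 1 of them, that of Hcn2, lay in a TRBS. In the whole genome 425 of 22256 such elements (1.91%) lay in a TRBS. At least 1 such element lay within 30 kb of the TSS for 7 of 10 members and for 45.5% of all protein-coding genes (9985). Of the members without a site, Cga had 3, among them a perfect one 29998 bp downstream of its TSS whose nearest TRBS summit was 122354 bp away. Nrgn had 3, Myh6 had 2, 1 of which also lies within 30 kb of Myh7, and Gh had 1. None was found around Hcn4 or Tshb, nor around Atp2a2, which had 3 TRBS. Mbp had a perfect element in an intron, 13804 bp downstream of the TSS and 6238 bp from the nearest summit, outside any TRBS. Perfect elements lay in a TRBS in 62 of 1119 cases (5.54%) in the genome. A perfect element within 30 kb was found for 2 of 10 members, that of Cga only just inside this limit, and for 2.79% of all protein-coding genes (613).

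Some of these elements are shown because each matches the DR4 with at most 1 mismatch but has no peak. They are the nearest to the TSS of each member without a site that had an element within 30 kb, the perfect one of Cga, a second one of Myh6 and the one in Hcn2. Repeats make up 56.25% of the Nrgn element. Capitals mark the half-sites, each is written on the strand that carries the repeat, and substitutions are counted as above.
Cga, 29998 bp downstream, chr4:34923770-34923785, intergenic, no mismatch: AGGTCActgcAGGTCA
Cga, 8043 bp upstream, chr4:34885728-34885743, intergenic, G12A: AGGTCAcagaAAGTCA
Myh6, 6426 bp downstream, chr14:54960493-54960508, coding exon of Myh6, G13T: AGGTCAgctgAGTTCA
Myh6, 4805 bp upstream, chr14:54971725-54971740, intron of Myh7 and in a repeat, T14G: AGGTCAgaggAGGGCA
Gh, 14812 bp upstream, chr11:106316670-106316685, intergenic, G2T: ATGTCAcctaAGGTCA
Nrgn, 20310 bp upstream, chr9:37573207-37573222, intron of Siae, C15A: AGGTCAagagAGGTAA
Hcn2, 7386 bp downstream, chr10:79724013-79724028, intron of Hcn2, A11G: AGGTCAgagtGGGTCA
All of these lay outside TRBS. The Hcn2 element in the intron has an intact first half-site and 1 mismatch, as many as the one in the TRBS upstream of the gene.

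RefSeq promoters (250 bases before to 50 after the start, GRCm38.p6) were matched for 7 of the 10 members. Only that of Myh6 held a DR4 with at most 2 mismatches, AGGTGAcaggAGGACA (chr14:54966712-54966727, C5G and T14A), 104 bp upstream of the RefSeq start and on the strand opposite to the gene. Among 32851 RefSeq promoters, 993 (3.02%) held one. The nearest TRBS summit to the Myh6 element was 397619 bp away, and no TRBS overlapped the promoter of any matched member. Exact AGGTCA half-sites were found in the promoters of Hcn2 (2) and Cga (1).

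Further response genes of the same organs, of the hypothalamus and of skeletal muscle were counted by the same rule. Of 44 such genes, 7 (15.9%) had a TRBS within 30 kb and 16 (36.4%) had one within 100 kb, close to the 16.7% and 38.3% of all protein-coding genes. By organ, the counts within 30 kb were 5 of 14 for the heart, 1 of 8 for pituitary and hypothalamus, 0 of 16 for the brain and 1 of 6 for skeletal muscle. With the members added, they were 7 of 19 (36.8%) for the heart, 1 of 11 for the pituitary and hypothalamus and 1 of 18 (5.56%) for the brain. The difference between organs was not tested, and the lists were chosen with results of these data known. Several of the heart genes are also used in other tissues, brown fat among them, so the organ names the known response and not where a gene is active.

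Of the heart genes among these, 4 are described. Atp1b1, the β1 subunit of the Na,K-ATPase, had a TRBS in its promoter, 424 bp upstream, where 26 fragments and a fold of 10.7 were measured. This site contained AGGTGGgggaAGGTCA (chr1:164458775-164458790, C5G and A6G) 3.5 bp from the summit. Adrb1, the β1 adrenergic receptor, had a site 14188 bp downstream with 39 fragments and a fold of 28.0 and a second one 29519 bp upstream with 9 fragments. Unlike the sites of Atp2a2, the stronger Adrb1 site held a DR4, AGTTCAagtaAGGGCA (chr19:56736402-56736417, G3T and T14G), 22.5 bp from its summit. Kcne1, a potassium channel subunit, had a site in an intron 5917 bp downstream with 20 fragments. Tnni1, the slow troponin I of fetal heart and slow muscle, had one 2121 bp upstream with 45 fragments and a fold of 31.1, and another of 11 fragments nearer to Phlda3.

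Outside the heart, Lhb, the β subunit of luteinizing hormone, had a site of 13 fragments 18601 bp downstream, but its nearest protein-coding TSS was that of Ruvbl2. Myog, the myogenic factor gene, had a site 3968 bp downstream with 41 fragments and a fold of 29.4. Atp1b1, Kcne1, Tnni1 and Myog had their nearest TRBS within 10 kb of the TSS, where no member had one. The brain genes of this list had none within 30 kb and 6 of 16 had one within 100 kb.

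**Figure D4:**
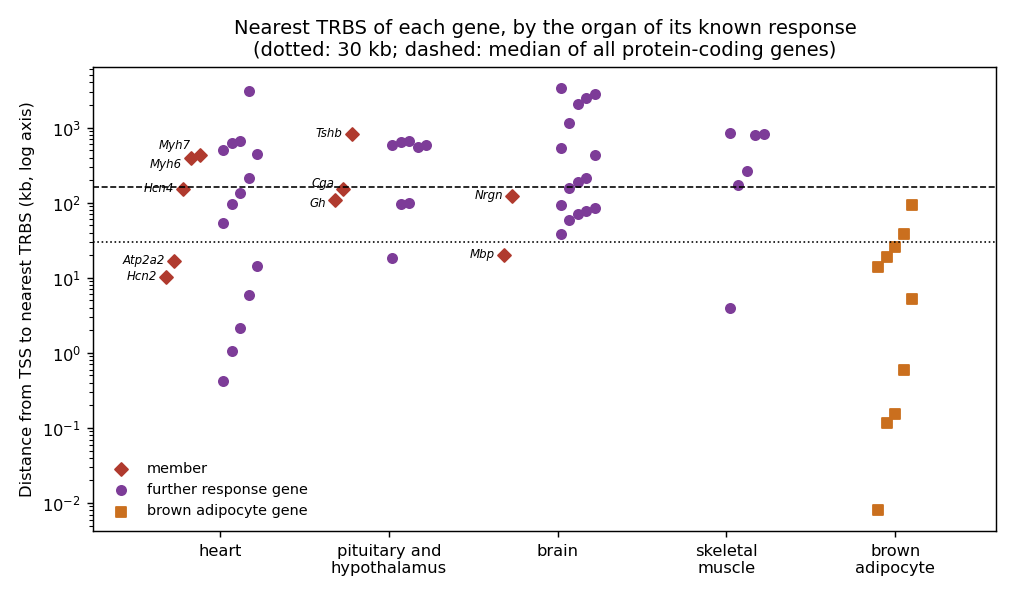
Distance from the TSS to the nearest TRBS (log axis, in kb) for each member (diamonds, named), each further response gene (circles) and each brown adipocyte gene (squares), grouped by the organ of the known response. Sideways shifts only separate points, 3 diamonds lie under the dotted line at 30 kb, and 5 heart circles, 1 pituitary circle and 1 muscle circle do so, with no brain circle.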

How the data were processed

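Per the labels, tissue was crosslinked with DSG and formaldehyde, and the tagged receptor was precipitated. The authors aligned reads to GRCm38 with Bowtie2 (2.3.2.2) and called peaks with MACS2 (2.1.1.20160309.6) in the ChIP against the input (versions from the submitters' processing notes). The deposited list gives a MACS score, a fold ratio with a pseudocount of 1, and −log10 p-values and q-values, all by the authors. The study's methods dropped scores under 60, but 897 of the 5107 deposited peaks are under it, and all were kept here. Read totals were not used. Whole fragments and input background at each summit were solved from the fold and p-value with a Poisson model (5089 peaks, 99.6%, tolerance 0.0005 on −log10 p), and intervals are exact Poisson.

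TSS came from GENCODE M21 on GRCm38 without mitochondrial genes, 1 per gene, the most upstream. The DR4 (AGGTCA in direct repeat with a spacer of 4) was searched on both strands with at most 2 mismatches in 12 half-site bases. Python 3.11.15, numpy 2.4.6, pandas 2.3.3 and scipy 1.17.1 were used, and the steps were tested on simulated data. No test was run, since each kind of library had 1 sample. Named genes were all members, the gene nearest to each of their TRBS, every further response gene with a TRBS within 30 kb (1 is not reported here), and Hr, Klf9, Thrsp and Ucp1 by their strongest site. Outside this rule, the brown adipocyte genes and genes next to or near a site (such as Ift81) were named after their values were seen. The members, lists and rules were chosen with earlier results of these data known. Alternatives changed the distance limit, score or fold minimum, TSS choice, overlap rule and DR4 mismatches.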

Additional observations from a re-analysis of the deposited data

How the results depend on the processing

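Of 45 values recomputed under alternatives, 35 stayed close to the reported value (a count or median within 1.5 times, a share within its interval) and 10 moved. These values have no direction, so none could reverse. The rule is loose for small counts. It took 2 members in place of 3, and 5 TRBS in place of 7, with the median coding start as close. Atp2a2, Hcn2 and Mbp remained the members with a TRBS at limits of 50 and 100 kb, with a score of at least 60, with a fold of at least 5, with any annotated TSS and with any base of the peak, while with a limit of 10 kb the count was 0 members and 0 TRBS, and with the median coding start, added after seeing the data, Mbp was lost. The limit moved the count of all protein-coding genes to 1775 (10 kb) and 8393 (100 kb) and that of the further response genes to 16 (100 kb). With all annotated genes, 2 of the 7 TRBS had the member as nearest gene, in place of 5, since noncoding genes have starts nearer. The share of TRBS with a DR4 was 14.3% with at most 1 mismatch (7.23% over all TRBS), 57.1% with at most 3 (72.5%) and 0% within 100 bp of the summit (27.5%). The DR4 elements inside a TRBS numbered 0 with 0 mismatches and 2 with a limit of 100 kb. With 1 library per kind no replicate could be left out. No paired analysis was possible because no result comes from a test and each group has 1 sample. Depth was not varied.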
